A study of Mus musculus with 6 samples.

Results

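The genes described here are those of naive and primed pluripotency, taken from a list of 36 symbols. A probe set was used where its annotated symbol was exactly one of the 36, and where a gene had more than 1, the brightest on average was kept. Of the 36 genes 34 were measured, among 18193 genes in all, and Tcfcp2l1 and Spp1 were not matched. RNA came from Flk1-positive cells sorted at day 3.5 from embryoid bodies, which were formed in hanging drops in a mesoderm-inducing condition. Both groups came from 1 mouse embryonic stem (ES) cell line of 129P2/Ola background, ER71 A17C, so both carry the same doxycycline-inducible Etv2 cassette (ER71 A2Lox.cre). The 3 induced samples received doxycycline at 0.5 microg/ml for 12 hours from day 3, and the 3 controls were untreated according to the series' design text. No doxycycline-treated line without the cassette was analysed here, so effects of the drug and of Etv2 cannot be told apart. The labels do not say whether replicates were separate cultures, so p-values reflect only how much these samples vary, and that variation may be technical.

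Naive pluripotency is the state of the early epiblast and of ES cells kept with the cytokine LIF. Its factors, among them Esrrb, Klf2, Klf4 and Prdm14, act with the core pair Oct4 and Sox2. They are shut down as cells pass to the primed state of the later epiblast. Primed cells keep Oct4 and gain the de novo DNA methyltransferases, and Oct4 and Nanog are known to stay on for a time in the primitive streak as mesoderm forms. Flk1, the protein of Kdr, is a VEGF receptor on the mesoderm that gives rise to blood and endothelium, and it was the protein selected in the sort.

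Values are log2 expression levels on arrays whose medians lay between 7.34 and 7.40, with 3 arrays per group limiting the precision. Etv2 read 9.92, 8.59 and 10.71 in controls 1, 2 and 3, and 13.27, 13.28 and 13.36 in the induced samples. All induced samples therefore lay above all controls. Kdr, which has 1 named probe set, was not level across the sorted samples. It stood at 10.02, 8.40 and 10.97 in controls 1, 2 and 3 and at 9.56, 9.36 and 10.52 in induced samples 1, 2 and 3. Control 2 was the lowest array and control 3 the highest, a range of 2.57 on the log2 scale, and the group means were 9.80 ± 1.30 (SD, n = 3) and 9.82 ± 0.62. A slope on Kdr below is the change in a gene's log2 level for each log2 unit of Kdr, over the 6 arrays.

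Most of the pluripotency genes gave signal above background in the Flk1-positive cells. All 6 samples were such cells, so whether a level was kept from the ES cell state could not be read. The table holds no detection calls, so the 95th percentile of 81 probe sets for olfactory, vomeronasal and trace amine receptors was taken as the background on each array. It lay between 7.64 and 7.79. Above it on all 6 arrays were 23 of the 34 genes, against 54.4% of all genes. They were Pou5f1, Sox2, Nanog and Sall4 among the core factors, Klf5, Esrrb and Tfap2c among the naive factors, Zfp42, Dppa2, Dppa4, Dppa5a, Utf1 and Pecr among the markers, all but Dnmt3l of the RNA and chromatin proteins, both LIF receptor subunits, and Sall1. For Esrrb and Pecr this rests on the brightest probe set alone, since every other one of theirs lay under background on every array. A further 5 genes were above background on some arrays. These were Fut9 on 5, Klf2 and Dnmt3l on 4, and Nr5a2 and Fbxo15 on 1. The remaining 6, Klf4, Prdm14, Nr0b1, Dppa3, Tcl1 and Rex2, did not exceed it on any array, so their levels could not be told from background. With the 99th percentile in place of the 95th the counts were 21, 6 and 7.

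**Figure D1:**
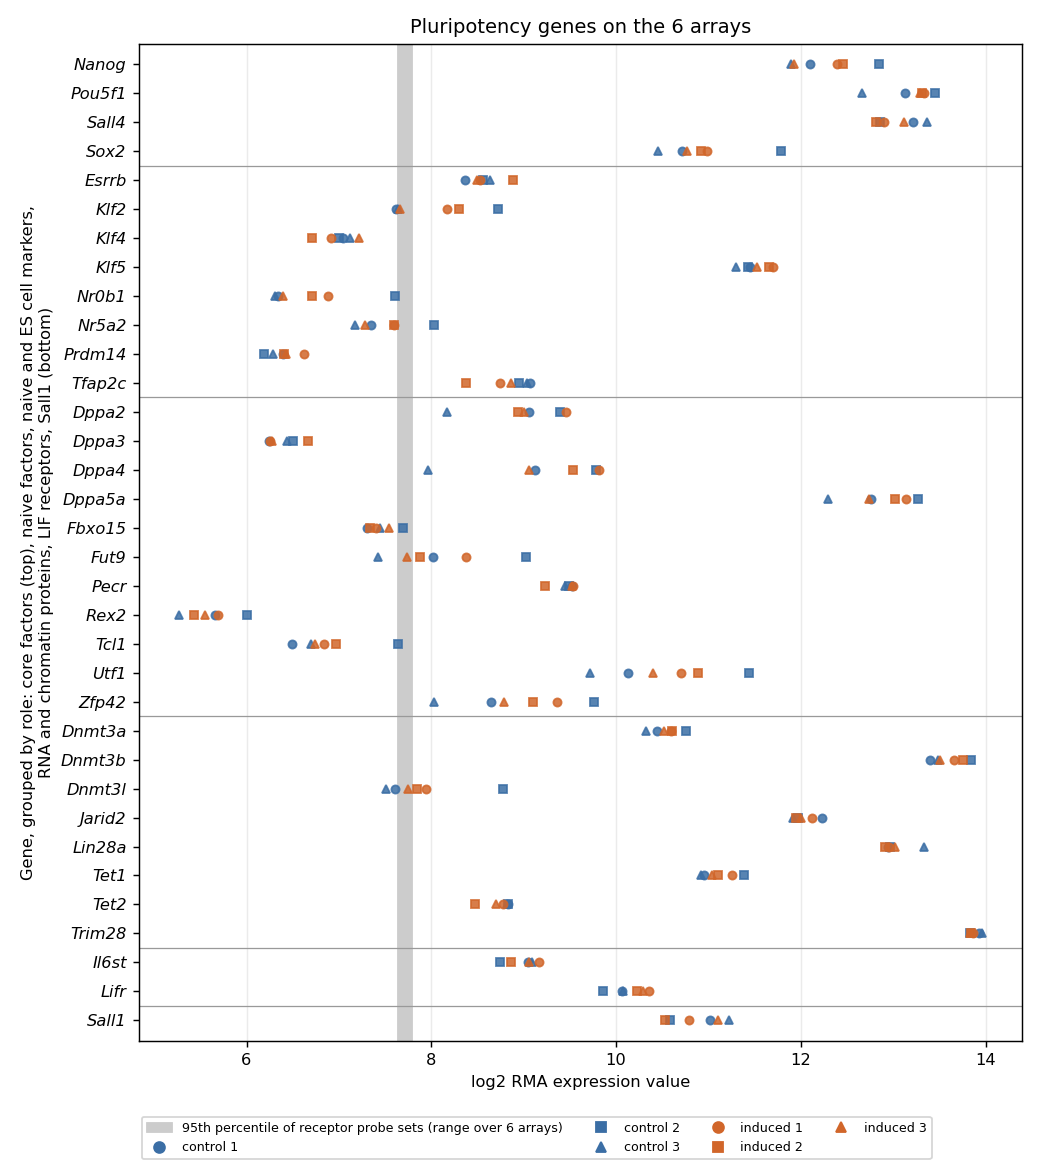
Each row is 1 gene and each point 1 array, with the log2 RMA expression value on the horizontal axis, blue for controls, orange for induced samples and a symbol for each replicate number. The grey band spans the background level of the 6 arrays (7.64 to 7.79); 23 of the 34 genes lie above their array's background on all 6 arrays and 6 lie above it on none.

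Some of the pluripotency genes were lower on arrays with more Kdr. Over the 6 arrays 11 of the 34 genes were lower where Kdr was higher at an adjusted p under 0.05 (limma, Benjamini-Hochberg over 18192 genes), against 1.82% of all genes in that direction. They were Sox2, Nanog, Klf2, Nr0b1, Nr5a2, Zfp42, Dppa4, Dppa5a, Utf1, Fut9 and Dnmt3l, with slopes between -0.65 and -0.33. Sall1 alone was higher with Kdr past the threshold, against 1.58% of all genes (3.41% in either direction). A further 7 had a negative slope at an unadjusted p under 0.05 only, namely Pou5f1, Dppa2, Dnmt3a, Dnmt3b, Rex2, Tcl1 and Tet1, and 2 a positive one, Sall4 and Il6st. In all 21 of the 34 had an unadjusted p under 0.05, against 13.7% of all genes, and 18 of them a negative slope, against 7.27%. The median slope was -0.16 over the 34 genes and 0.0050 over all genes. In bulk RNA, fewer cells of a type and less RNA per cell cannot be told apart.

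Which of the 11 passed changed with single arrays and with the replicate block. Without control 2, the array with the lowest Kdr, Dppa4 alone passed (0.660% of all genes were then lower with Kdr). Without control 3, the array with the highest Kdr, Klf2, Nanog, Nr0b1 and Nr5a2 passed (0.280% of all genes). With the replicate number as a block Dnmt3l, Fut9 and Sox2 passed (0.170% of all genes). The other 8 had slopes between -0.98 and -0.39 with limma adjusted p from 0.0626 to 0.283. The blocked fit uses only the difference between the induced sample and the control of the same number, and leaves the group out. Kdr was lower in the induced sample than in the control for numbers 1 and 3 and higher for number 2. Its group means were close, at 9.80 and 9.82, so a constant difference between the groups adds little to a slope there. Most of the range of Kdr over the arrays is not used. All 11 slopes were negative under each of the 13 alternatives in which the gene was tested. The 11 were picked by their slope in the same arrays, so an unchanged sign adds no independent support. An exact permutation test of Pearson's r over the 720 pairings of 6 arrays called 0 of 18192 genes after adjustment. At an unadjusted p under 0.05 it called 2092 genes, or 11.5%, among them 17 of the 34, 15 with a negative r. The same test of Spearman's rho also called 0 genes after adjustment, and at an unadjusted p under 0.05 it called 13 of the 34, 11 with a negative rho, against 9.86% of all genes.

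**Figure D2:**
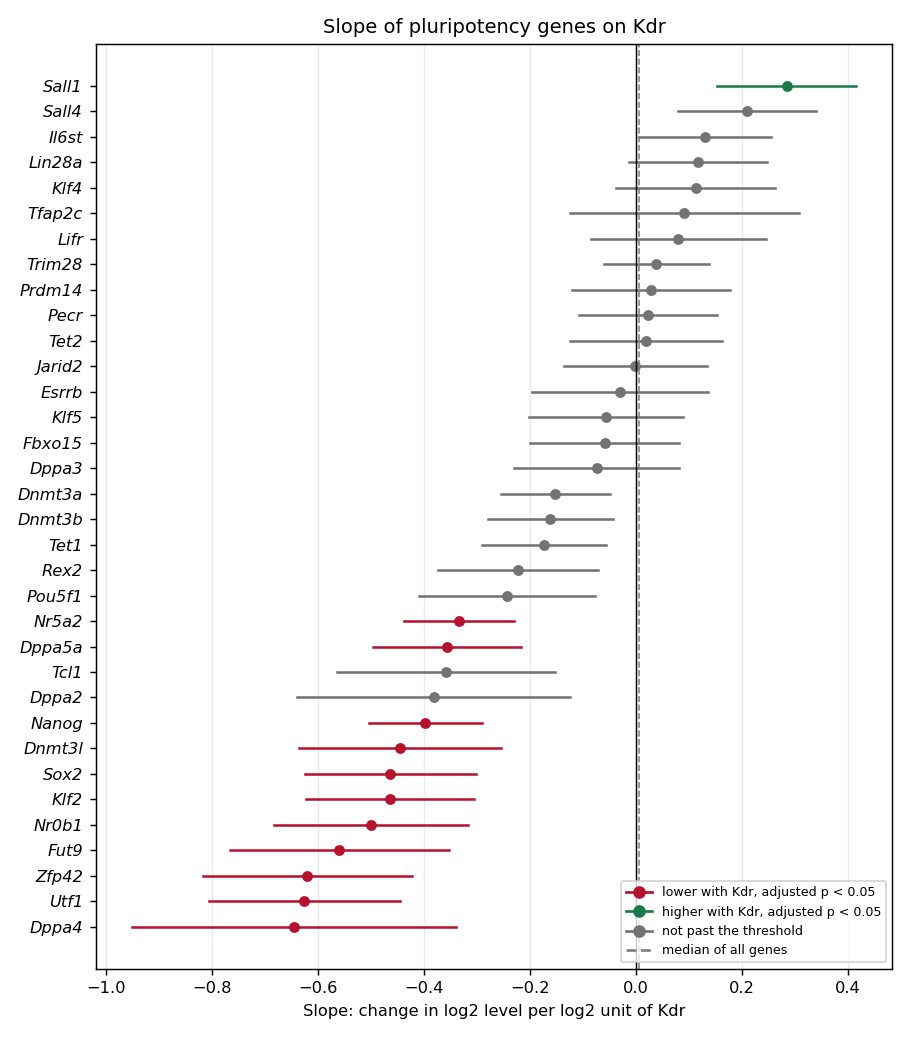
Points are slopes of each gene's log2 level on the log2 level of Kdr over 6 arrays, with limma's 95% intervals as bars and the median of all genes as a dashed line. The 11 genes in red (slopes -0.65 to -0.33) and Sall1 in green pass the adjusted threshold of 0.05 with all 6 arrays in the fit.

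Among the core factors, Nanog and Sox2 fell with rising Kdr. Nanog, a homeobox factor of the naive state, stood at 12.10, 12.85 and 11.89 in controls 1, 2 and 3 and at 12.39, 12.46 and 11.92 in induced samples 1, 2 and 3. Its order was the exact reverse of that of Kdr, and the groups overlapped. The slope was -0.40 ± 0.047 (SE, n = 6) with a limma adjusted p of 0.0025, and control 3 was 1.94-fold below control 2. Pearson's r was -0.985 (exact permutation p = 0.0014, adjusted 0.184) and Spearman's rho -1 (exact permutation p = 0.0028, adjusted 0.181), each the smallest p that 6 arrays can give. Without controls 2 and 3, the arrays farthest from the median of Kdr, r was -0.992.

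Because Nanog is a known target of Oct4 and Sox2, its promoter is shown with the composite site searched for. The sequence comes from RefSeq (GRCm38.p6), plus strand, chr6:122707239-122707538, and runs from 250 bases before to 50 bases after an annotated start site. Capitals mark the match to TGCATNACA, from 73 to 65 bases before the start:
Nanog: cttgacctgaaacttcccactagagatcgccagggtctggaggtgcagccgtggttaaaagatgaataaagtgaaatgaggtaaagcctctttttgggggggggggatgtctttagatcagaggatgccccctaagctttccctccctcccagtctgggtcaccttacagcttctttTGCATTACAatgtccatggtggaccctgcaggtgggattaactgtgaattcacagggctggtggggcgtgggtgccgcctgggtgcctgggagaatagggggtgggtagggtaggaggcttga
TGCATNACA or its reverse complement was found in 0.801% of 32851 promoter windows of this length. Of the 24 genes with a window in that table, which had 36 windows in all, Nanog alone matched, in both of its overlapping windows. A match describes the letters and does not show that a factor bound there.

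Sox2, the HMG-box partner of Oct4, was at 10.71, 11.78 and 10.45 in controls 1, 2 and 3 and at 10.99, 10.92 and 10.77 in induced samples 1, 2 and 3. Control 2 stood well above the other arrays, and the 3 induced samples lay between the controls. The slope was -0.46 ± 0.072 (SE) at a limma adjusted p of 0.0080, with r = -0.932 (exact permutation p = 0.0056, adjusted 0.217) and rho = -0.886 (0.0333, adjusted 0.338). Leaving out control 2 brought the slope to -0.28 and its adjusted p to 0.155. The octamer-binding factor itself, Pou5f1, varied less. Its levels were 13.13, 13.46 and 12.67 in controls 1, 2 and 3 and stood at 13.33, 13.31 and 13.30 in induced samples 1, 2 and 3. Only control 3 stood well below the rest, and the slope of -0.24 ± 0.074 did not pass (limma adjusted p = 0.140). Without controls 2 and 3, r went from -0.790 to -0.319.

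The zinc-finger gene Sall4, whose protein works with Oct4 in ES cells, had the opposite sign. It was at 13.21, 12.85 and 13.37 in controls 1, 2 and 3 and at 12.90, 12.82 and 13.12 in induced samples 1, 2 and 3, with a slope of 0.21 ± 0.058 (limma adjusted p = 0.104). Its other, dimmer probe set did not follow Kdr in that way (r = -0.036). Sall1, a zinc-finger gene of the same family that is also used in mesoderm, was at 11.02, 10.58 and 11.22 in controls 1, 2 and 3 and at 10.79, 10.53 and 11.10 in induced samples 1, 2 and 3. Arrays with more Kdr had more Sall1 apart from control 2 and induced 2, which were close together. The slope was 0.28 ± 0.058 (limma adjusted p = 0.029). That call was lost with the most variable probe set (slope 0.17), with the replicate block (0.081, adjusted p = 0.791) and without any 1 array other than induced 2.

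Of 8 naive transcription factors measured, Klf2, Nr0b1 and Nr5a2 fell with Kdr past the threshold. Klf4, Klf5, Esrrb, Prdm14 and Tfap2c had slopes between -0.057 and 0.11 that did not pass, those of Klf4 and Prdm14 from levels below background. Klf2, a Krüppel-like factor that is also induced by blood flow in endothelium, was at 7.62, 8.72 and 7.64 in controls 1, 2 and 3 and at 8.17, 8.30 and 7.66 in induced samples 1, 2 and 3. It exceeded background in control 2 and in the 3 induced samples, narrowly in induced 3, and not in controls 1 and 3. The slope was -0.46 ± 0.071 (SE) with a limma adjusted p of 0.0075. Its relative Klf4 had a slope of 0.11 ± 0.067 below background, and Klf5, well above background at 11.30 to 11.69, one of -0.057 ± 0.064. The difference between these slopes was not tested.

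Nr5a2 and Nr0b1 are nuclear receptors tied to Oct4 expression in ES cells. Nr5a2 was at 7.35, 8.03 and 7.17 in controls 1, 2 and 3 and at 7.60, 7.60 and 7.28 in induced samples 1, 2 and 3. Only control 2 exceeded background, yet the order followed Kdr in reverse, with a slope of -0.33 ± 0.046 (limma adjusted p = 0.0048) and r = -0.983 (exact permutation p = 0.0014, adjusted 0.184). Nr0b1 stayed under background throughout, at 6.34, 7.61 and 6.30 in controls 1, 2 and 3 and at 6.88, 6.71 and 6.40 in induced samples 1, 2 and 3. Its slope of -0.50 ± 0.082 (limma adjusted p = 0.0099) therefore rests on signal in the range of the receptor probe sets, where array values are compressed. Leaving out control 2 brought it to -0.31 with an adjusted p of 0.195.

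Esrrb, an orphan nuclear receptor that stabilises the naive state, depended on the probe set. The one with the highest mean read 8.37 to 8.88 with a slope of -0.031 ± 0.074, and it alone exceeded background. Another, at 6.63, 7.42 and 6.67 in controls 1, 2 and 3 and at 6.87, 7.01 and 6.60 in induced samples 1, 2 and 3, ran against Kdr at r = -0.921 under the background level. It is the most variable of the gene's 3 probe sets, and with that choice the slope was -0.32 (adjusted p = 0.0409). Prdm14, a regulator of naive cells and germ cells, did not exceed background, at 6.19 to 6.62.

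Of 11 ES cell markers measured, 5 fell with Kdr past the threshold, against 1.82% of all genes. The core factors had 2 of 4, the naive factors 3 of 8, the RNA and chromatin proteins 1 of 8 and the LIF receptors 0 of 2. Zfp42, also called Rex1 and lost early in the exit from the naive state, was at 8.65, 9.76 and 8.02 in controls 1, 2 and 3 and at 9.36, 9.10 and 8.79 in induced samples 1, 2 and 3. It exceeded background on all 6 arrays, and control 3 was 3.34-fold below control 2. The slope was -0.62 ± 0.088 (SE) with a limma adjusted p of 0.0053, r was -0.934 (exact permutation p = 0.0125, adjusted 0.261) and rho -0.886 (0.0333, adjusted 0.338). Without control 2 the slope was -0.67 at an adjusted p of 0.0566.

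The Zfp42 promoter is shown because it holds the letters of the octamer known as an Oct4 site. It is the RefSeq (GRCm38.p6) window of the same kind, minus strand, chr8:43306960-43307259, written 5′ to 3′ along the gene. Capitals mark ATTTGCAT, the reverse complement of ATGCAAAT, from 186 to 179 bases before the start:
Zfp42: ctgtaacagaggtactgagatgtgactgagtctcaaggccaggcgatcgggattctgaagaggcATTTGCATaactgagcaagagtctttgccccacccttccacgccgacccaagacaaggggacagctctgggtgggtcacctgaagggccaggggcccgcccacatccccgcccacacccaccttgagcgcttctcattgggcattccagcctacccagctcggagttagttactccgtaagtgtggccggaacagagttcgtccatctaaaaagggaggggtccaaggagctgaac
ATGCAAAT on either strand was found in 1.74% of all windows, and Zfp42 alone of the 24 genes had it. The Sox letters ACAATG, which overlap the composite match in Nanog, were found in 12.6% of windows and in 5 of the 24 genes, Nanog, Pou5f1, Esrrb, Lifr and Lin28a. TCAAGGTCA, an Esrrb site, was found in 0.423% of windows and in 0 of the 24 genes. GGGNGTGG, read by Krüppel-like factors, was found in 17.6% of windows and in 7 of the 24 genes. These were Nanog, Zfp42, Nr5a2, Dnmt3l, Dnmt3b, Pou5f1 and Sall1.

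Utf1, a chromatin-bound factor of undifferentiated cells, was at 10.13, 11.44 and 9.71 in controls 1, 2 and 3 and at 10.70, 10.89 and 10.40 in induced samples 1, 2 and 3. Control 3 was 3.30-fold below control 2. Its slope was -0.63 ± 0.080 (limma adjusted p = 0.0035), and without control 2 it was -0.62 (0.0593). Dppa5a, an RNA-binding protein of ES cells and germ cells, was at 12.76, 13.27 and 12.30 in controls 1, 2 and 3 and at 13.14, 13.02 and 12.74 in induced samples 1, 2 and 3. It stayed bright on every array while falling with Kdr, at a slope of -0.36 ± 0.062 (adjusted p = 0.013).

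Dppa2 and Dppa4 encode SAP-domain proteins that act together on chromatin. Dppa4 was at 9.12, 9.78 and 7.96 in controls 1, 2 and 3 and at 9.81, 9.54 and 9.06 in induced samples 1, 2 and 3, so control 3 was the low array and 3.53-fold below control 2. The slope was -0.65 ± 0.14 (limma adjusted p = 0.0326), and without control 3 it was -0.37 (0.270). Dppa2 followed the same arrays, from 8.17 in control 3 to 9.46 in induced 1, with a slope of -0.38 ± 0.11 that did not pass (0.135). Fut9, the fucosyltransferase that makes the stage-specific embryonic antigen of mouse ES cells, was at 8.02, 9.03 and 7.43 in controls 1, 2 and 3 and at 8.37, 7.87 and 7.74 in induced samples 1, 2 and 3. Control 2 was its highest array and control 3 its lowest, below background. Its slope was -0.56 ± 0.092 (limma adjusted p = 0.0103).

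The remaining markers were dim or flat. Dppa3, also called Stella and a gene of naive and germ cells, lay at 6.24 to 6.67, Rex2, a zinc-finger gene, at 5.27 to 6.01, and Tcl1, a cofactor of AKT, at 6.49 to 7.64, none above background. Tcl1 had its highest value in control 2 and a slope of -0.36 ± 0.091 (limma adjusted p = 0.0747), which was -0.13 without that array. Fbxo15, an F-box gene regulated by Oct4 and Sox2, had a slope of -0.059 ± 0.063 and Pecr, a peroxisomal reductase, one of 0.022 ± 0.058.

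**Figure D3:**
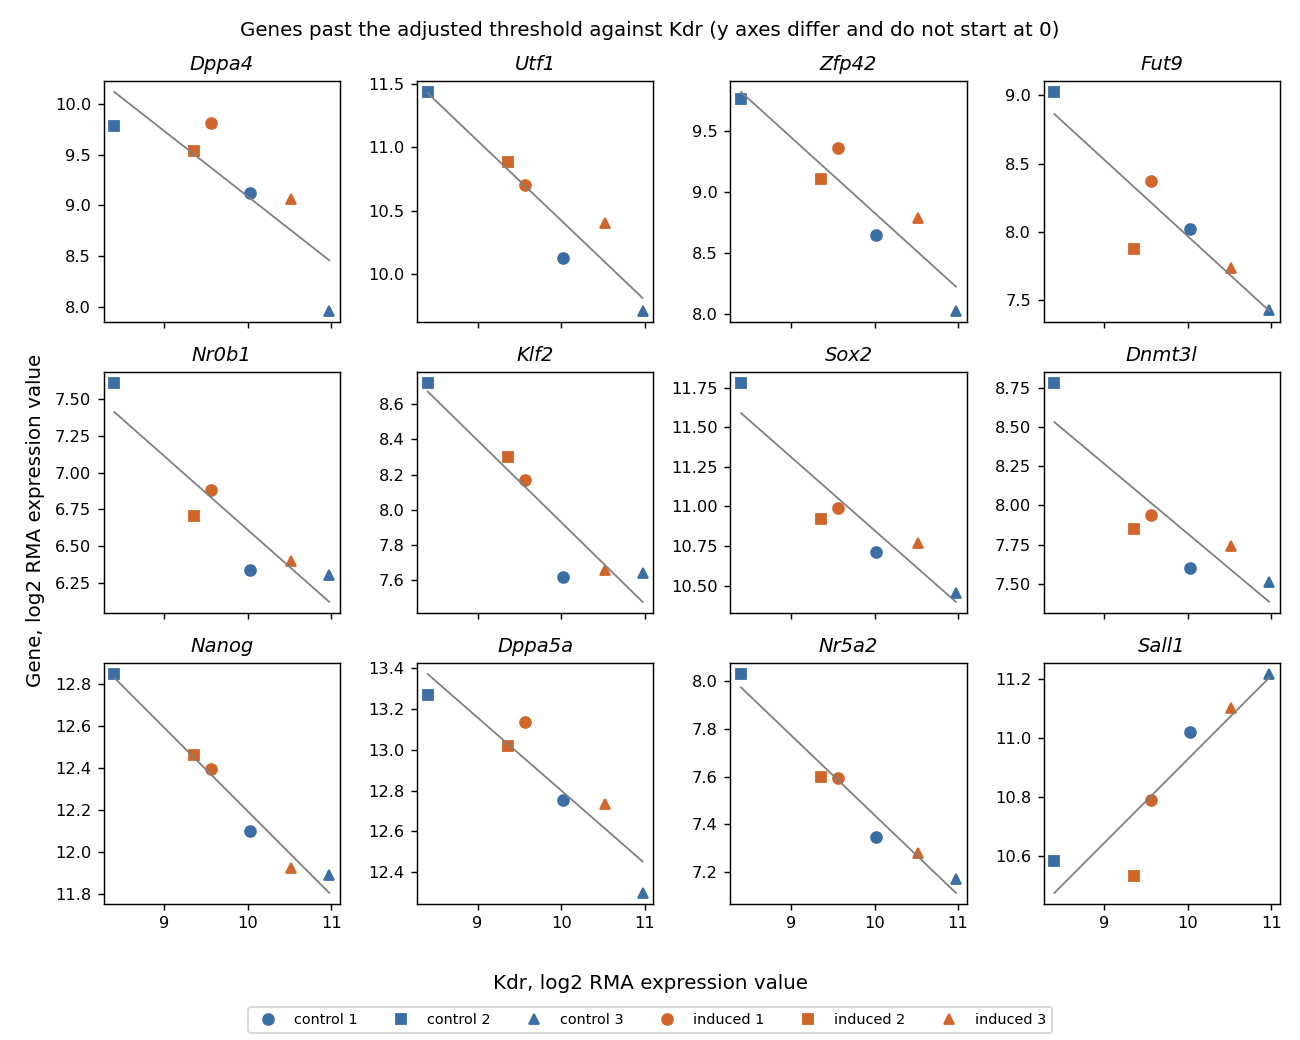
Each panel plots 1 of the 12 genes past the adjusted threshold, with the log2 level of Kdr on the horizontal axis, the gene's log2 level on the vertical axis and the fitted line in grey; y axes differ and do not start at 0. Control 2 (blue square, Kdr 8.40) is the highest array in 10 of the 11 falling genes, and control 3 (blue triangle, Kdr 10.97) is the lowest in 10 of the 11.

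None of Dnmt3a, Dnmt3b, Tet1 and Tet2 passed the slope threshold, and Dnmt3l did. Dnmt3b, the de novo methyltransferase of the primed epiblast, was at 13.40, 13.84 and 13.49 in controls 1, 2 and 3 and at 13.66, 13.75 and 13.50 in induced samples 1, 2 and 3. Its slope was -0.16 ± 0.053, not past the threshold (limma adjusted p = 0.170; 0.0419 with an intensity trend in the variance). Dnmt3a, its relative, had a slope of -0.15 ± 0.046 (0.135), and its 5 probe sets all ran against Kdr, with r from -0.963 to -0.742. Dnmt3l, the inactive cofactor of both, was at 7.60, 8.78 and 7.51 in controls 1, 2 and 3 and at 7.94, 7.85 and 7.74 in induced samples 1, 2 and 3. Control 2 stood apart from the other 5 arrays, which were near background. The slope of -0.45 ± 0.085 (limma adjusted p = 0.0205) became -0.21 (0.323) without control 2.

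Genes for the enzymes that oxidise methylated cytosine, Tet1 and Tet2, had slopes of -0.17 ± 0.052 (limma adjusted p = 0.131) and 0.018 ± 0.064. Jarid2, a partner of the PRC2 histone methyltransferase, had a slope of -0.0016 ± 0.060, and Trim28, the corepressor of KRAB zinc-finger proteins, one of 0.038 ± 0.044 at 13.83 to 13.96. Lin28a, an RNA-binding protein that blocks maturation of a microRNA family, gave opposite signs from its probe sets. The brighter one was at 12.94, 12.97 and 13.33 in controls 1, 2 and 3 (r = 0.683), while the other was at 9.72, 10.03 and 9.21 (r = -0.867). LIF signals through Lifr and Il6st. Neither moved past the threshold with Kdr, at 0.079 ± 0.074 and 0.13 ± 0.056, and the probe sets of Il6st ranged in r from -0.542 to 0.750.

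**Figure D4:**
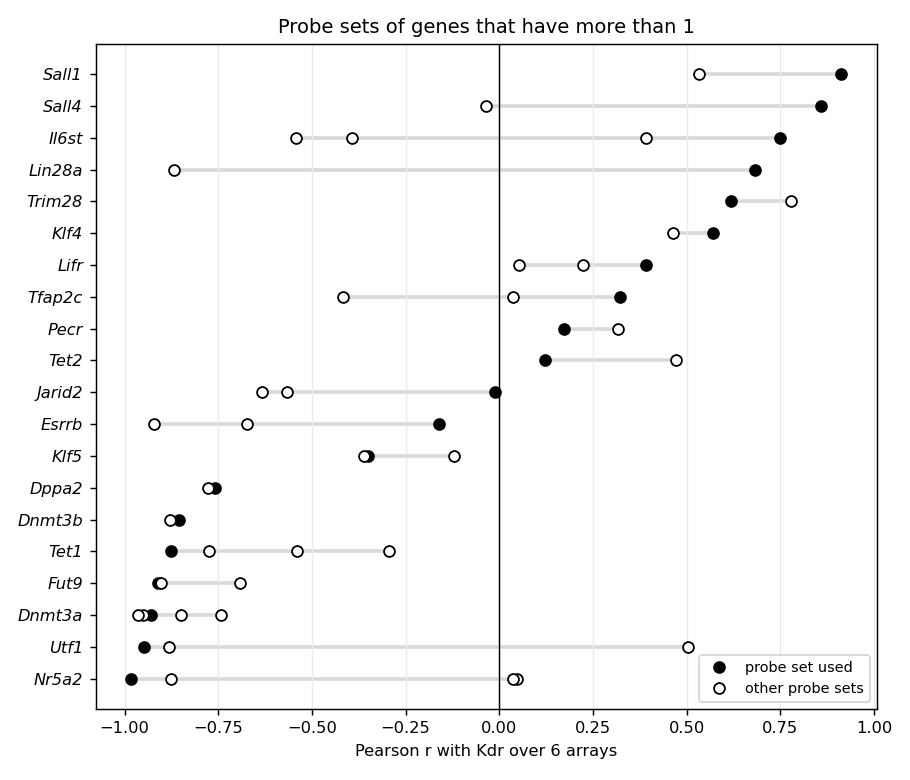
Each row is 1 of the 20 genes with more than 1 probe set, and each point is the Pearson r of 1 probe set with Kdr over 6 arrays, filled for the probe set used. All probe sets have the same sign of r in 14 genes; in Il6st, Lin28a, Nr5a2, Sall4, Tfap2c and Utf1 they do not.

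Doxycycline induction of Etv2 was compared next, to ask whether the pluripotency genes differ after 12 hours. None of the 34 passed limma's adjusted threshold, against 0.00550% of all genes, and the smallest adjusted p among them was 0.9995. Etv2 itself, 11.8-fold higher in the induced samples, had a limma adjusted p of 0.388 in this fit. At an unadjusted p under 0.05 there were 3, Klf5, Lifr and Tfap2c, against 1.71% of all genes. The median log2 fold change, induced minus control, was -0.017 over the 34 genes and 0.0026 over all genes, with 16 positive and 18 negative. Without control 2 it was 0.20, with 0 genes past the threshold.

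In 5 of the 34 the groups did not overlap, against 6.79% of all genes. Higher in the induced samples were Klf5, Lifr and Prdm14 (2.88% of all genes lay in that direction), and lower were Tfap2c and Tet2 (3.91%). For 3 samples against 3, an exact two-sided permutation test cannot go below p = 0.1, the value that such a split gives. Klf5, a factor of ES cells and trophectoderm, was at 11.45, 11.43 and 11.30 in controls 1, 2 and 3 and at 11.69, 11.65 and 11.53 in induced samples 1, 2 and 3. The group means of Klf5 differed by 0.23 ± 0.084 (SE, log2), and by 0.083 with the most variable probe set. Lifr, the ligand-binding LIF receptor subunit, was at 10.06, 9.85 and 10.08 in controls 1, 2 and 3 and at 10.36, 10.22 and 10.29 in induced samples 1, 2 and 3. The difference was 0.29 ± 0.089, or 1.23-fold, with a range of 0.22 to 0.34 over the alternatives.

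Tfap2c, the AP-2 gamma factor of trophoblast, germ cells and naive cells, was at 9.07, 8.95 and 9.04 in controls 1, 2 and 3 and at 8.74, 8.38 and 8.86 in induced samples 1, 2 and 3. Induced 2 was the lowest array, and the difference was -0.36 ± 0.13. Tet2 was at 8.83, 8.83 and 8.82 in controls 1, 2 and 3 and at 8.78, 8.48 and 8.71 in induced samples 1, 2 and 3, again lowest in induced 2, with a difference of -0.17 ± 0.094. Without induced 2 the difference was -0.22 for Tfap2c and -0.084 for Tet2. Prdm14 was at 6.39, 6.19 and 6.28 in controls 1, 2 and 3 and at 6.62, 6.41 and 6.42 in induced samples 1, 2 and 3. It differed by 0.20 ± 0.094, below background on every array.

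In Nanog, Sox2, Zfp42, Dppa5a, Dnmt3b and Pou5f1 the groups overlapped. Nanog differed by -0.020 ± 0.25 (SE), from 12.28 ± 0.50 (SD, n = 3) in controls to 12.26 ± 0.29 in induced samples, and Sox2 by -0.088 ± 0.30. Zfp42 differed by 0.27 ± 0.39, Dppa5a by 0.19 ± 0.23, Dnmt3b by 0.063 ± 0.13 and Pou5f1 by 0.23 ± 0.18. Without control 2 the differences were 0.26 for Nanog, 0.31 for Sox2, 0.75 for Zfp42, 0.44 for Dppa5a, 0.20 for Dnmt3b and 0.42 for Pou5f1, with limma adjusted p of 0.967 in each. Over all alternatives every one of the 6 except Pou5f1 took both signs. The 95% intervals were wide, reaching from -0.62 to 1.16 for Zfp42. The SD was larger in the controls than in the induced samples for all 6 of these genes, at 0.40 against 0.020 for Pou5f1 and 0.88 against 0.29 for Zfp42. That difference in spread was not tested.

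**Figure D5:**
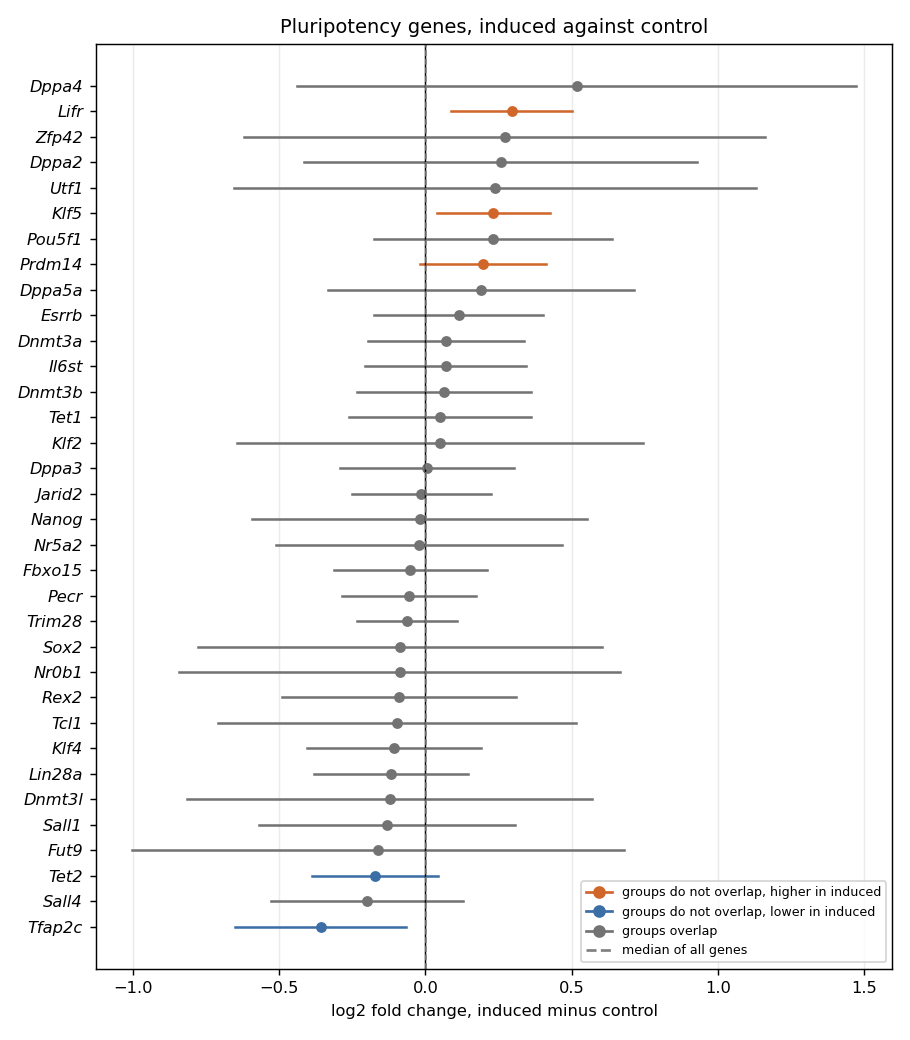
Points are log2 fold changes, induced minus control, of the 34 genes with limma's 95% intervals (3 arrays per group), and the dashed line is the median of all genes. Klf5, Lifr and Prdm14 (orange) and Tfap2c and Tet2 (blue) have groups that do not overlap; 0 of the 34 pass the adjusted threshold.

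Other genes of the same pathways and markers of other cell types were counted in lists set beside the 34. The counts below read against 1.82% of all genes lower and 1.58% higher with Kdr. With the replicate block 2 of the 168 genes of these lists passed, Trh (lower) and Sox17 (higher), against 38 without it. Among 27 further pluripotency network genes 4 were lower and 1 was higher with Kdr past the threshold, and without control 2 the 4 did not pass, nor without control 3. The TGF-beta family gene Gdf3 had a slope of -0.45 ± 0.068 (SE), the forkhead factor Foxd3 of -0.45 ± 0.088, the ES cell RNA-binding gene L1td1 of -0.36 ± 0.074, and the adhesion gene Epcam, named after its values were seen, of -0.33 ± 0.046. Tbx3, a T-box factor of naive cells that is also used in mesoderm and endoderm, rose instead, from 8.55 in control 2 to 11.05 in control 3, at a slope of 1.05 ± 0.068. The median slope of this list was -0.052.

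Primed and formative epiblast genes split. Of 18 measured, 4 were lower and 2 higher with Kdr, against 2 and 1 without control 2, and 2 and 2 without control 3. Those lower were the SoxB1 gene Sox3 (slope -0.64 ± 0.11), the POU factor Pou3f1 (-0.56 ± 0.087), the ligand gene Nodal (-0.47 ± 0.054) and, named after its values were seen, the claudin Cldn6 (-0.43 ± 0.047). Those higher were the Wnt effector Lef1 (0.47 ± 0.051) and, also named afterwards, N-cadherin, Cdh2 (0.41 ± 0.052). Of 15 genes of LIF and STAT3 signalling 0 passed the threshold. The 2 brightest, Pim3 and Ptpn11, had slopes of -0.041 ± 0.046 and 0.062 ± 0.055, and at an unadjusted limma p under 0.05 the signal transducer Stat3 (0.14 ± 0.053) and the kinase gene Jak1 (0.14 ± 0.052) had positive slopes and the kinase gene Pim1 (-0.14 ± 0.048) a negative one. The PRC2 list had 0 of 10, with Rbbp4 at 0.049 ± 0.044 and Rbbp7 at -0.016 ± 0.045 as its brightest genes. Its alternative catalytic subunits Ezh2 (0.14 ± 0.046) and Ezh1 (-0.13 ± 0.045) reached an unadjusted limma p under 0.05 with opposite signs. These 5 genes were named after their values were seen, and 13.7% of all genes reached that unadjusted threshold. The difference between the slopes of Ezh2 and Ezh1 was not tested. Of 11 genes of DNA methylation and TRIM28 silencing 1 was higher, the imprint-keeping zinc-finger gene Zfp57 (0.32 ± 0.060). No gene of these 5 lists passed the threshold between induced and control samples.

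Markers of the primitive streak, of flank and cardiac mesoderm and some of endoderm were higher where Kdr was higher, and their part in the lower pluripotency signal was not tested. Of 11 primitive streak markers 6 were higher with Kdr and 0 lower, led by the T-box gene Tbx6 (slope 0.73 ± 0.062) and Mesp1 (0.70 ± 0.096). Their summed signal, as log2, ranged from 14.90 to 15.60 in controls and from 15.13 to 15.40 in induced samples. Of 11 flank and cardiac mesoderm markers 7 were higher, led by Gata4 (1.17 ± 0.073) and Pdgfra (0.78 ± 0.13), with sums of 12.79 to 14.37 and 13.35 to 14.07, and Hand2, Tbx20, Tek and Tal1 were not above background. Control 2 had the lowest sum of both lists and control 3 the highest. Without control 2 the counts higher with Kdr were 2 and 4 (0.814% of all genes), and without control 3 also 2 and 4 (0.528%).

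Definitive endoderm markers were higher in 4 of 8, led by the chemokine receptor Cxcr4 (1.16 ± 0.11) and Sox17 (1.00 ± 0.066), and Trh, a hormone gene and the brightest of the list, was lower at a slope of -0.84 ± 0.046. Their sums were 13.55 to 13.97 in controls and 13.41 to 13.62 in induced samples, with control 2 the highest array. Trophoblast markers had 1 of 8 higher, Gata3 (1.03 ± 0.077), with sums of 13.91 to 14.25 and 14.00 to 14.15. Eomes, which is also among the primitive streak markers, is part of these sums at 13.35 to 13.70. Elf5, Ascl2, Tpbpa and Plac1 were not above background. Fibroblast markers, which feeder cells would carry, had 2 of 8 lower, Dcn (-0.29 ± 0.046) and Thy1 (-0.25 ± 0.046), and 1 higher, Col1a2 (0.24 ± 0.051). Their sums were 10.16 to 10.30 and 10.22 to 10.30, with Col1a1, Col3a1, Postn and Lum not above background.

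None of the visceral endoderm (10), neuroectoderm (8), macrophage (7) or endothelial (10) markers passed in limma's slope fit. Not above background on any array were Afp, Amn, Cubn and Sox7 of the first, Sox1, Pax6, Zic1, Six3, Hes5 and Lhx2 of the second, Ptprc, Tyrobp, Fcer1g and Cd14 of the third, and 8 of the 10 endothelial markers, Cdh5 among them. Their sums ranged in controls and induced samples from 10.89 to 10.96 and 10.89 to 11.05, from 12.59 to 12.68 and 12.59 to 12.70, from 10.13 to 10.16 and 10.13 to 10.38, and from 10.49 to 10.58 and 10.47 to 10.71. The 2 brightest were Ttr and Hnf4a (slopes -0.029 ± 0.067 and -0.029 ± 0.053), Sox11 and Nes (-0.0049 ± 0.047 and 0.021 ± 0.054), Laptm5 and Csf1r (0.024 ± 0.059 and 0.035 ± 0.053), and Ramp2 and Esam (-0.14 ± 0.053 and 0.033 ± 0.065).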

How the data were processed

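The deposited table holds log2 expression values for 45101 probe sets on 6 Affymetrix arrays, made by the authors with RMA per the submitters' processing notes. The software version was not given in the sources used here. Probe sets were named through GEO's platform annotation: 34945 had 1 symbol, 932 had several and 9211 had no entry. Each of 18193 genes took its probe set with the highest mean, and no dim gene was left out.

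Induced and control samples were compared, and levels regressed on Kdr, with limma 3.58.1 in R 4.3.3 (lmFit and eBayes, two-sided, Benjamini-Hochberg over all genes, threshold 0.05). Both fits were also run on simulated data, with the spread of each gene capped and planted slopes steeper than those of the pluripotency genes. That run does not show how well changes of the size described here are found. Exact permutation tests used SciPy 1.17.1 for ranks and all 720 pairings. No list test was run. Values in every sample are given for Pou5f1, Sox2, Nanog, Zfp42, Dppa5a, Dnmt3b, genes past a threshold and genes whose groups do not overlap. From other lists up to 4 genes past the slope threshold with the largest slopes, or the 2 brightest, were named (2 for marker lists). The members, lists and this rule were chosen with earlier results of these data known.

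Both groups use the replicate numbers 1, 2 and 3. Over genes, deviations of same-numbered samples from their group means had r = 0.161, 0.218 and 0.411 for numbers 1, 2 and 3. All were above 0.1, so the numbers were treated as pairs in the blocked alternative. Control 2 with induced 1 (0.299) and control 1 with induced 3 (0.236) were also positive, above the same-numbered values of controls 2 and 1. The remaining combinations were negative, from -0.525 to -0.038. These values do not single out the numbers as pairs, and the labels do not say what a number marks. The alternatives were another normalization, another probe set, a filter on dim genes, the block, array weights, a variance trend, the group beside Kdr and leaving out each array.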

Additional observations from a re-analysis of the deposited data

How the results depend on the processing

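For the induction, 0 of the 34 genes passed under each of the 13 alternatives, the replicate block among them. The 5 genes with groups that do not overlap kept their direction wherever they were tested, which for Prdm14 leaves out the filter on dim genes. Leaving out an array cannot change the direction of such a gene. The median log2 fold change of the 34, -0.017, ranged from -0.074 to 0.20 when single samples were left out, the highest without control 2. For the slope on Kdr, 12 genes passed with all arrays, against 3 with the replicate block, 7 with genes above the median level only, where 23 of the 34 were tested, and 1 to 13 when single samples were left out, the lowest without control 2. The median slope of -0.16 was -0.23 with the most variable probe set, -0.057 among genes above the median level and -0.28 with the replicate block. For 14 single genes, the 12 that passed with all arrays plus Pou5f1 and Dnmt3b, 0 of 177 slopes changed sign, 33 lost the call and 2 gained it. The 12 were picked by their slope in the same arrays, so an unchanged sign adds no independent support. Some genes outside the 14 took both signs, among them Klf4 (-0.20 to 0.26) and Esrrb (-0.32 to 0.23). The counts in the pathway and marker lists under these alternatives, chosen after seeing the data, went from 38 of 168 genes to 2 with the replicate block, 21 without control 2 and 15 without control 3. A slope on another Kdr probe set was not run, since 1 is named. Dim levels are compressed, which limits slopes near background.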

Other observations

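Some genes of the germ cell list, which shares several factors with naive cells, also differed along Kdr. Of 12 measured, 1 of them Dppa5a, 2 were lower and 2 higher with Kdr past limma's adjusted threshold (1.82% and 1.58% of all genes), and 0 with the replicate block. The synaptonemal complex gene Sycp3 was at 10.30, 10.88 and 9.32 in controls 1, 2 and 3 and at 10.80, 10.72 and 9.96 in induced samples 1, 2 and 3, with a slope of -0.61 ± 0.099 (SE). Prdm1, a repressor that starts the germ cell programme and is also used in endoderm, ran the other way, from 7.83 in control 2 to 9.22 in control 3 at a slope of 0.57 ± 0.078, and the surface protein gene Ifitm1 had a slope of 0.34 ± 0.074. Dazl, Tdrd12, Mael and Itgb3 did not exceed background on any array.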
